A study of Mus musculus with 20 samples.

Results

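The cardiac stress and fetal programme genes, whose RNA is widely read as a gauge of load on heart muscle, were described in mouse hearts. They are Nppa, Nppb, Myh6, Myh7, Acta1, Acta2 and Ankrd1. The genes were taken by name and not by a cutoff on their values, with earlier results of these data known, and are 7 of 49005 genes with counts and 7 of the 18069 genes that passed the filter on low counts. The hearts came from wild-type C57BL/6 mice of 12 weeks, in 4 groups of polyA-selected RNA libraries: 5 high-fat females, 5 chow females, 5 high-fat males and 4 chow males. The high-fat libraries are named PA in the labels and were read as high fat by elimination, since chow and high-fat diet are the diets the series names. All groups share strain, genotype and age, and no transgene, drug or operation is named. How long the diet lasted, the hour at which hearts were taken and whether each library is a separate animal are not given in the sources used here, so every p-value reflects variation among the sequenced libraries, part of which may be technical. Chow male 4 was counted per gene and not per exon piece, and was left out.

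In the mouse, cardiac muscle before birth makes natriuretic peptides in the ventricle, the beta myosin heavy chain and the skeletal and smooth muscle forms of actin. After birth these give way to the alpha myosin heavy chain and cardiac actin. Under pressure load or injury the adult ventricle turns the earlier genes on again, which is why the set is called the fetal programme and why its rise is used as a sign of stress. Nppa and Nppb encode the hormones ANP and BNP, which bind the receptor Npr1 and promote loss of salt and water. Ankrd1 encodes a protein of the titin spring region and the nucleus that is induced by stretch.

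Of these genes, 5 were each called in at least 1 comparison with all libraries. The sequences just upstream of the 5 are shown for that reason and because they hold binding motifs of factors known to act on them. They are the 250 bases before the start that RefSeq gives on build GRCm38.p6, with the strand of the gene. Capitals mark GATAA, the core of GATA factor sites, CATTCC, the core of TEAD sites, and the CArG box bound by SRF, written with its 6 middle bases A or T save at most 1. Both strands were searched.
Nppa, chr4:148000472-148000721, plus strand: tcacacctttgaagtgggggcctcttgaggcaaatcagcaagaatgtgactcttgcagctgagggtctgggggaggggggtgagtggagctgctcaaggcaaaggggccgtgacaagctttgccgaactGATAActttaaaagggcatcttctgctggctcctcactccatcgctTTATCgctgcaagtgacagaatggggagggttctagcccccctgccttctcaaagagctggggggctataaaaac
Nppb, chr4:147985650-147985899, plus strand: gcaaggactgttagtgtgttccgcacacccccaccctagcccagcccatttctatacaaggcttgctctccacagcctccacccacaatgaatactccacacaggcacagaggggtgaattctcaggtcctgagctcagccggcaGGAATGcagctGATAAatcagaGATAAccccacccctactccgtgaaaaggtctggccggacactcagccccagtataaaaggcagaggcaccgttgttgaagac
Acta1, chr8:123894776-123895025, minus strand: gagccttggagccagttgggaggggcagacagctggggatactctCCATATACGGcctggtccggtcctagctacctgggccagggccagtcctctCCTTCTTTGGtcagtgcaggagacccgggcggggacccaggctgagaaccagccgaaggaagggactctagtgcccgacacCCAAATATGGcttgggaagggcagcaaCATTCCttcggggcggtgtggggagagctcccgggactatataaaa
Acta2, chr19:34255374-34255623, minus strand: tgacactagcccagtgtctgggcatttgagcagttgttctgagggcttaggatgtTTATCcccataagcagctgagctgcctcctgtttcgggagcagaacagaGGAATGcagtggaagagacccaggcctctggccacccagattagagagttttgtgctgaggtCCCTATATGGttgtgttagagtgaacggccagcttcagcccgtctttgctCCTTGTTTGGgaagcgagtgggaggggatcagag
Ankrd1, chr19:36119845-36120094, minus strand: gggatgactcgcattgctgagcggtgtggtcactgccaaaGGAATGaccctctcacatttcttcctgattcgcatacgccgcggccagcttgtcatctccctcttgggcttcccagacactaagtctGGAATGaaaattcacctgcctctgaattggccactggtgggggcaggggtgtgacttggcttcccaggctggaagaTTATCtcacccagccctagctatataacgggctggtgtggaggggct
The Nppa and Nppb windows held 2 GATAA matches each, in Nppb with their first bases 94 and 83 bases before the start. The counted pieces of Nppb begin upstream of the RefSeq start, at base 147985788, so the marked matches of Nppb lie downstream of that base. The Acta1 window held 1 CArG box with all 6 middle bases A or T, 73 bases before the start, and 2 more with 1 other base, while Acta2 held 2 of the looser kind. CATTCC was present in the windows of Nppb, Acta1 and Acta2 and at 2 places in that of Ankrd1, 210 and 123 bases before the start. GATAA was also present in the windows of Acta2 and Ankrd1. The windows of Myh6 and Myh7, not shown, held CATTCC too, 206 bases before the Myh6 start and 201 before 1 of the Myh7 starts. That of Myh6 also held a looser CArG box, 149 bases before the start. The counted pieces of Myh6 also begin upstream of its RefSeq start, at base 54966927. Over 32851 windows of the same length, 1.47% held a strict CArG box, 8.59% held the looser form, 12.6% held CATTCC and 22.6% held GATAA. These are letter matches and were not tied to any binding measurement.

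Myh6 and Myh7 lie next to each other on chromosome 14, and each carries a microRNA in an intron, whose mature sequences are shown because each is made from the transcript of its host gene. RefSeq gives miR-208a-3p within Myh6 and miR-208b-3p within Myh7, with the seed, bases 2 to 8, in capitals.
miR-208a-3p: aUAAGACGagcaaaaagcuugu
miR-208b-3p: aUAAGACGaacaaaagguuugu
The seed is the same in both and 3 of the 22 bases differ. Neither overlaps a counted exon piece of its host gene, so the Myh6 and Myh7 counts do not measure their levels.

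Levels are given as CPM, the count of a gene relative to the library total after TMM scaling. The counts were given for pieces of exons and summed per gene, and the 19 library totals ran from 57805110 to 85794067. Each of the 7 genes had at least 2242 counts in every library. To compare genes, levels were divided by the counted length. Per kilobase and over the 19 libraries, Myh6 stood at 6242 CPM and ranked 8 among the genes tested. Ankrd1 followed at 438 CPM per kilobase, Nppb at 182, Nppa at 96.8, Acta1 at 78.8, Myh7 at 66.8 and Acta2 at 64.2, all within the top 683 genes. Myh6 alone held 3.96% of all counts. High-fat females 4 and 5 stood apart. The nuclear RNA Malat1 had 117 CPM in female 4 and 63.9 CPM in female 5, while the lowest of the remaining 17 libraries had 1132 CPM and the highest 1533 CPM. Calls of the 7 genes that change without them are given both ways. For the gene lists below, not every call that changes without them is given.

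**Figure D1:**
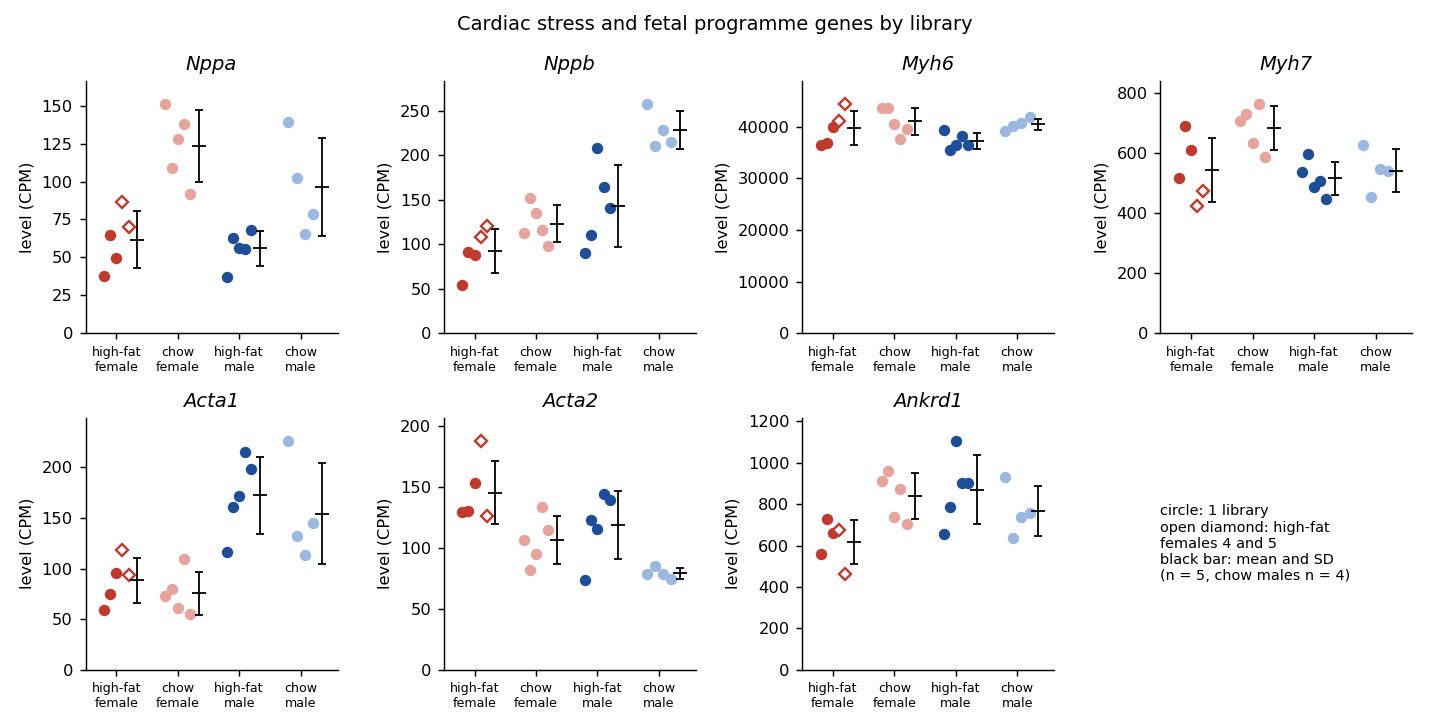
Level of each of the 7 genes in CPM in every library, by group, with the mean and SD as black bars. Open diamonds are high-fat females 4 and 5. All high-fat females lie below all chow females in Nppa, and all chow females lie below all chow males in Nppb and Acta1.

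Nppa, the ANP gene, was lower in high-fat than in chow hearts. High-fat females 1 to 5 had 37.6, 64.8, 49.5, 86.4 and 69.9 CPM, against 151, 109, 128, 138 and 91.5 CPM in chow females 1 to 5. No high-fat female reached the lowest chow female. High-fat males had 36.9, 63.0, 56.2, 55.7 and 67.8 CPM, against 139, 102, 65.6 and 78.5 CPM in chow males. There 4 of the 5 high-fat males lay below every chow male, and the highest of them lay above 1 chow male. The means were 61.7 ± 18.8 CPM in high-fat females and 124 ± 23.6 CPM in chow females (SD, n = 5 each), and 55.9 ± 11.7 CPM in high-fat males (n = 5) and 96.4 ± 32.4 CPM in chow males (n = 4).

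Averaged over the sexes, Nppa fell on high fat by 0.89 ± 0.17 on the log2 scale (SE), 0.538 of the chow level (edgeR quasi-likelihood test, adjusted p = 0.00492). That call held in all 28 alternatives run, with adjusted p between 2.80e-05 and 0.0155. In females alone Nppa fell to 0.499 of the chow level (SE 0.23 on the log2 scale, adjusted p = 0.0266) and in males alone the log2 change was -0.79 ± 0.24 (adjusted p = 0.201, not called). Leaving out chow female 1 ended the female call (adjusted p = 0.0704), as did leaving out chow female 4 (0.0624) or high-fat female 3 (0.0650), and a fit to females only gave 0.137. Without high-fat females 4 and 5 both sexes were called, at -1.29 (adjusted p = 0.00348) in females and -0.78 (adjusted p = 0.0414) in males. A fit to males only also called the change in males (-0.78, adjusted p = 0.0396). The difference between the sexes in the diet change was -0.22 ± 0.33 (adjusted p = 0.789). Between the sexes Nppa was not called on either diet, at 0.14 ± 0.23 on high fat and 0.36 ± 0.24 on chow (female over male).

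Nppa is strongest in the atria, so atrial genes were read beside it. Sln, the sarcolipin gene and the sharpest atrial marker in mice, had 8 counts over all 19 libraries and none in 14 of them. Bmp10, a growth factor of the atrial wall, had 16 counts in all and none in 9. The atrial light chain genes Myl7 and Myl4 were low, with Myl7 at 1.09 to 2.66 CPM in high-fat females, 0.723 to 2.07 in chow females, 1.04 to 1.97 in high-fat males and 1.27 to 1.57 in chow males. The ventricular light chain gene Myl2 stood at 12808 to 17864 CPM over the 19 libraries. Of 14 atrial genes listed, 11 could be tested and none was called for diet in either sex by edgeR, with or without high-fat females 4 and 5. Dkk3 was higher in females than in males on both diets, by 1.81 on high fat (adjusted p = 2.47e-06) and 0.88 on chow (adjusted p = 0.00707). Kcna5 was, without high-fat females 4 and 5, called lower in females on high fat (-0.70 ± 0.22, adjusted p = 0.0443). The summed level of the list was 1060 to 1322 CPM in high-fat females and 1147 to 1227 in chow females. In males it was 1056 to 1160 on high fat and 1070 to 1180 on chow. Almost all of that sum came from genes of the list other than Sln, Bmp10, Myl7 and Myl4. Of these, Myl4 stood at 0.920 to 2.50 CPM over the 19 libraries. In RNA from mixed heart cells, fewer cells of a type and less RNA per cell cannot be told apart.

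Of the 3 exon pieces of Nppa, 2 overlap pieces of Gm13054, a transcript on the same stretch of chromosome 4, and whether reads were counted by strand is not given in the sources used here. Gm13054 was counted at 62.9% to 67.2% of the Nppa level in every library. With those 2 pieces left out, a choice made after seeing the data, the averaged diet change of Nppa was -0.88 (edgeR adjusted p = 0.00491). All 3 pieces were lower on high fat in both sexes, with log2 ratios of -1.05 to -0.98 in females and -0.80 to -0.75 in males.

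Nppb, the BNP gene, was lower in females than in males on chow. High-fat females 1 to 5 had 54.5, 90.8, 88.1, 108 and 120 CPM, against 113, 152, 135, 116 and 98.2 CPM in chow females. High-fat males had 90.5, 111, 208, 165 and 141 CPM, against 258, 211, 229 and 215 CPM in chow males. Every chow female lay below every chow male, and every high-fat male lay below every chow male, while the 2 female groups overlapped. The means ran in the order high-fat females (92.4 ± 24.9), chow females (123 ± 20.9), high-fat males (143 ± 46.1) and chow males (228 ± 21.3 CPM, SD). Chow females and high-fat males, next to each other in that order, overlapped.

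On chow, Nppb was lower in females than in males by a log2 change of -0.89 ± 0.22, 0.538 of the male level (edgeR adjusted p = 0.0304). Leaving out any one of 8 of the 9 chow libraries ended this call, and the log2 change stayed between -0.98 and -0.82 in all 19 alternatives, with adjusted p up to 0.0948. On high fat the sex difference was -0.63 ± 0.21 (adjusted p = 0.0592, not called), and -0.88 (adjusted p = 0.0120) without high-fat females 4 and 5. The diet change averaged over the sexes was -0.54 ± 0.15 (adjusted p = 0.0586, not called). It was called in 4 alternatives, among them DESeq2 (adjusted p = 0.0207) and the fit without high-fat females 4 and 5 (-0.67, adjusted p = 0.00495). In males alone it was -0.67 ± 0.22 (adjusted p = 0.244) and in females -0.41 ± 0.21 (adjusted p = 0.289). Nppb has 3 exon pieces and no overlapping gene, and all 3 were lower in chow females than in chow males, by log2 ratios of -0.90 to -0.88.

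**Figure D2:**
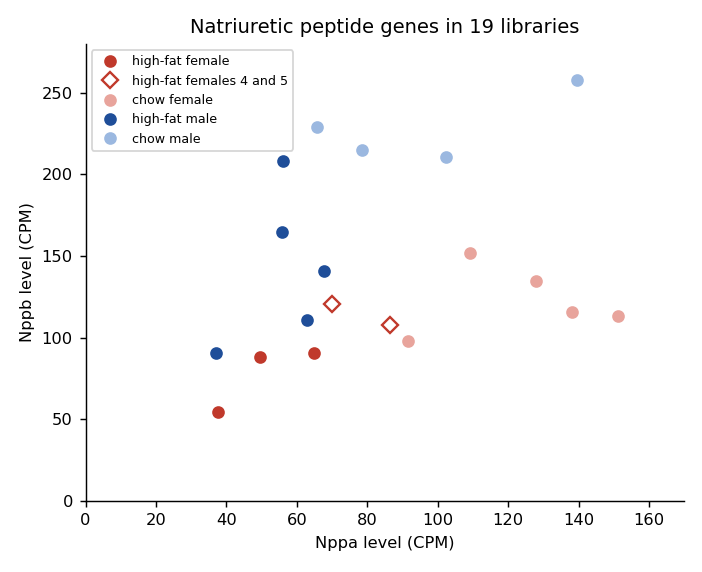
Nppa level against Nppb level in CPM, 1 point per library, with the groups in colour and high-fat females 4 and 5 as open diamonds. High-fat libraries lie toward low Nppa in both sexes, while chow males lie above all chow females in Nppb at 211 to 258 CPM.

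Among 12 other genes of natriuretic peptide action, 10 could be tested. Npr1, the receptor for ANP and BNP, was the only one called for diet with all libraries, and it rose. It had 34.7 to 39.9 CPM in high-fat females against 30.5 to 33.3 CPM in chow females, with no overlap (log2 change 0.22 ± 0.05, edgeR adjusted p = 0.0309). In males Npr1 stood at 35.0 to 39.3 CPM on high fat and 33.9 to 37.8 CPM on chow (0.09 ± 0.05, adjusted p = 0.766), and the averaged change was 0.15 ± 0.04 (adjusted p = 0.0299). Once high-fat females 4 and 5 were left out, 3 of the 10 were called higher on average. Besides Npr1 these were Mme, the peptidase neprilysin (0.29 ± 0.09, adjusted p = 0.0410), and Prkg1, a cyclic GMP-dependent kinase (0.29 ± 0.06, adjusted p = 0.00420). In that fit Mme was also called in females (0.45 ± 0.13, adjusted p = 0.0478) and Prkg1 in males (0.32 ± 0.08, adjusted p = 0.0399), and Mme was lower in females than in males on chow (-0.58 ± 0.12, adjusted p = 0.00321). With all libraries, the median log2 change of the 10 genes averaged over the sexes was 0.03, against -0.02 over all genes tested. Corin, the protease that cuts proANP, averaged 267 ± 17.1 CPM in high-fat females and 267 ± 23.2 CPM in chow females. Npr3, the clearance receptor, had 5.43 CPM in high-fat female 4 and 5.59 CPM in female 5, against 9.56 CPM or more in each of the remaining 17. Pde9a, a cyclic GMP phosphodiesterase, was higher in females than in males on high fat (0.52 ± 0.10, adjusted p = 0.00491) and on chow (0.49 ± 0.11, adjusted p = 0.0212).

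Myh6, the alpha myosin heavy chain of adult mouse heart, was close to level. High-fat females had 36489, 36964, 40011, 41111 and 44468 CPM, against 43611, 43680, 40643, 37740 and 39688 CPM in chow females. High-fat males had 39461, 35448, 36574, 38209 and 36516 CPM, against 39228, 40250, 40844 and 41847 CPM in chow males. Both pairs overlapped, and the averaged diet change was -0.08 ± 0.05 (edgeR adjusted p = 0.419). Without high-fat females 4 and 5, which hold the 2 highest values of their group, it was -0.12 (adjusted p = 0.0376).

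Myh7, the beta heavy chain, had 519, 690, 610, 425 and 473 CPM in high-fat females, against 706, 731, 633, 765 and 586 CPM in chow females. High-fat males had 539, 597, 488, 509 and 448 CPM, against 626, 455, 549 and 540 CPM in chow males. The lowest 2 of all the female libraries are high-fat females 4 and 5. No comparison was called for Myh7 with all libraries: the diet change was -0.33 ± 0.12 in females (edgeR adjusted p = 0.145) and -0.07 ± 0.13 in males (adjusted p = 0.999), and on chow females over males gave 0.34 ± 0.13 (adjusted p = 0.179). That last difference was called without high-fat females 4 and 5 (0.34, adjusted p = 0.0325), with an SE of 0.10 against 0.13 with all libraries.

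The share of Myh7 in the sum of the 2 heavy chains, per length, was 1.01% ± 0.25 in high-fat females, 1.22% ± 0.15 in chow females, 1.02% ± 0.13 in high-fat males and 0.981% ± 0.14 in chow males (SD). Its diet difference was -0.21 percentage points in females (exact two-sided permutation test, p = 0.159) and 0.04 in males (p = 0.683). On chow the sexes differed by 0.24 points, female minus male (exact permutation p = 0.0476, where the smallest possible is 0.0159). Adjusted over the 8 share comparisons made, that p was 0.127.

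**Figure D3:**
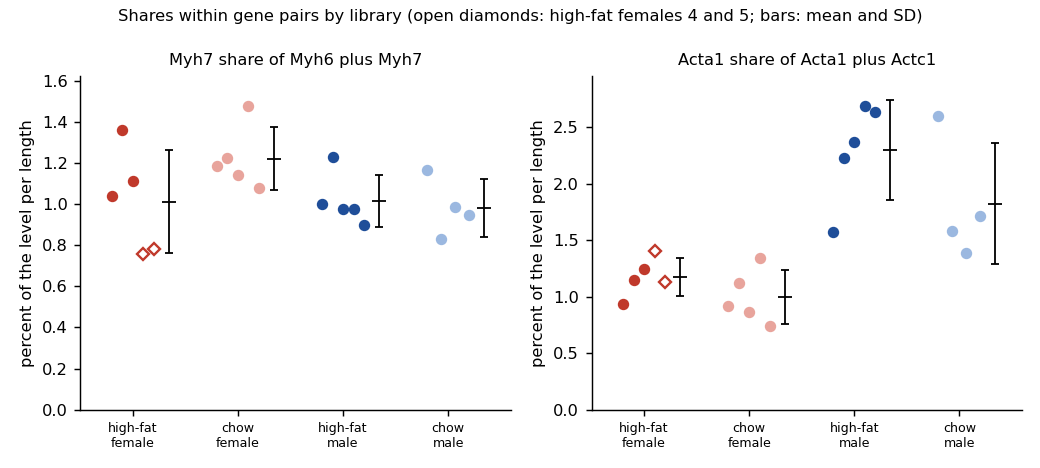
Myh7 as a percent of Myh6 plus Myh7, left, and Acta1 as a percent of Acta1 plus Actc1, right, both per counted length, in every library, with mean and SD. Females lie below males in the Acta1 share on both diets with no overlap, while the Myh7 shares of all 4 groups overlap.

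The coding sequences of Myh6 and Myh7 in the GENCODE annotation are 91.8% identical, so some reads can match both. The longest stretch without a difference is shown because reads within it cannot be told apart. It covers 245 bases, from base 4246 to base 4490 of the Myh6 coding sequence and from base 4240 to base 4484 of the Myh7 coding sequence.
Myh6 and Myh7: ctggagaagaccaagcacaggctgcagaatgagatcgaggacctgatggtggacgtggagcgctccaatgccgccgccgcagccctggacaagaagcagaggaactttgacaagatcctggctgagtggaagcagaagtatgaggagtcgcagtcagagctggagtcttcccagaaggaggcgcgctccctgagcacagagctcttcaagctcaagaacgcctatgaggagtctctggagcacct
Exon pieces were therefore split by whether they hold any base of a 50-base stretch found in the other gene, a split made after seeing the data. In Myh7, 27 pieces hold one and 25 do not. Over the 19 libraries the median level was 98.7 CPM per kilobase in pieces with a shared stretch and 66.0 in pieces without, and in Myh6 it was 6510 and 6136. Both kinds of Myh7 piece include long ones with few counts. Examples are 992 bases without a shared stretch and 617 with one, at 2.99 and 5.36 CPM per kilobase in chow females. The part of shared reads in these medians was not tested.

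The 2 kinds of Myh7 piece differed in their medians in high-fat females 4 and 5, with overlapping ranges. Against the chow female mean, the pieces with no shared stretch had median log2 ratios of -1.21 in female 4 and -1.30 in female 5, and the pieces with a shared stretch -0.62 and -0.38. In female 4 the pieces without ran from -1.48 to -0.79 and those with one from -1.33 to -0.12. In female 5 they ran from -2.11 to -0.44 and from -1.33 to -0.09. In the mean of high-fat females 1 to 3 the medians without and with a shared stretch were -0.17 and -0.15. Myh6 pieces with no shared stretch had medians of -0.02 in female 4 and 0.21 in female 5. The 5′ part of the Myh7 level, up to the midpoint of its counted length, was 26.1% in female 4 and 27.0% in female 5. In the other 17 libraries it was 30.9% to 37.4%. The same part of Myh6 was 41.6% and 44.6% in females 4 and 5, within the 39.5% to 45.1% of the other 17. The 2 Myh7 pieces nearest the 3′ end, with no shared stretch, were low as well. Their log2 ratios were -1.30 and -1.30 in female 4, and -1.48 and -1.28 in female 5.

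**Figure D4:**
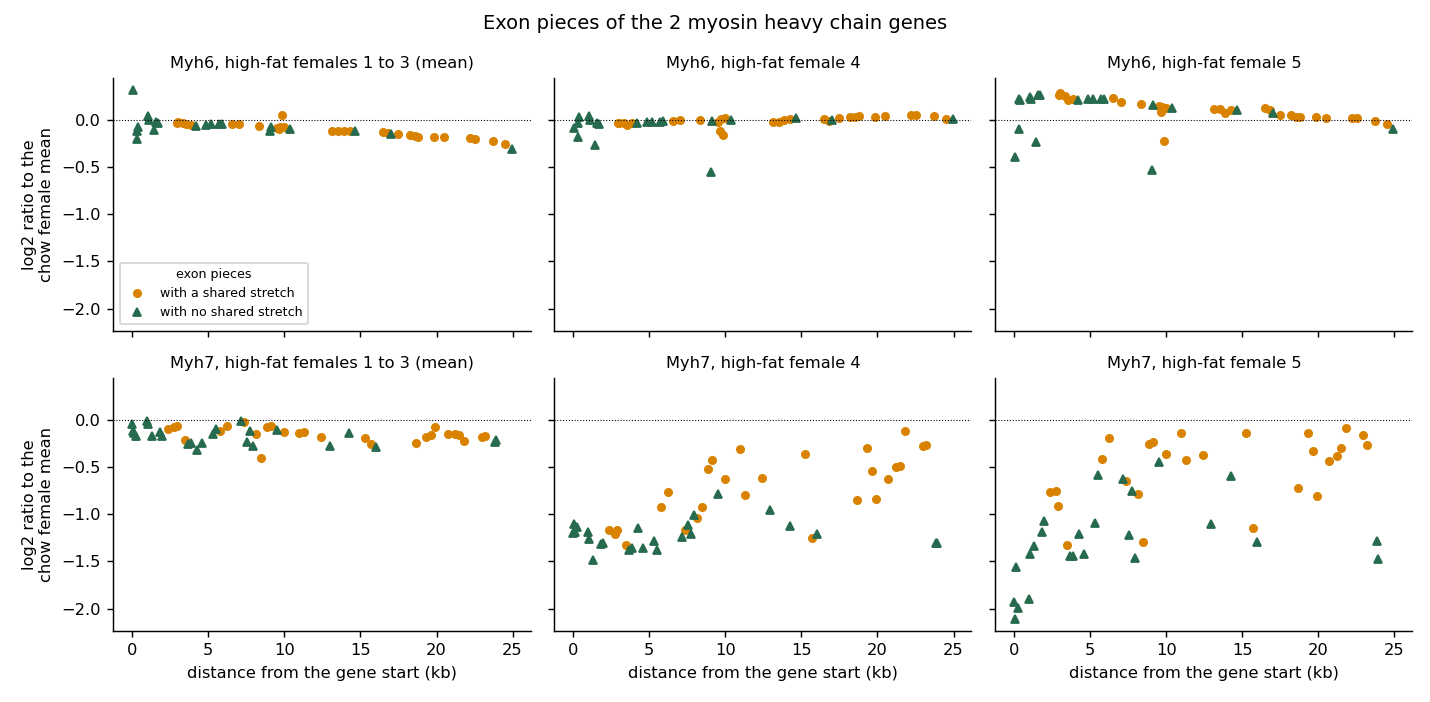
Log2 ratio of each exon piece of Myh6 (top) and Myh7 (bottom) to the chow female mean, against its distance in kilobases from the gene start, for the mean of high-fat females 1 to 3 and for females 4 and 5. Orange circles are pieces with a stretch shared by both genes, green triangles pieces with none. In females 4 and 5 the Myh7 triangles have the lower medians, -1.21 and -1.30, and overlap the circles.

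Counted on the pieces with no shared stretch, Myh7 had 127, 176, 158, 74.4 and 77.3 CPM in high-fat females 1 to 5, against 189, 185, 158, 192 and 153 CPM in chow females. High-fat males had 132, 146, 105, 110 and 105 CPM, against 168, 112, 125 and 127 CPM in chow males. High-fat females 4 and 5 were the lowest of the 19. The diet change in females was then -0.52 ± 0.20 (edgeR adjusted p = 0.170), larger than on all pieces and still not called. Mhrt and Gm29015 overlap 5 of the 52 Myh7 pieces, and without those 5 the change was -0.36 (adjusted p = 0.167).

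Acta1, the skeletal alpha-actin gene, was lower in females than in males on both diets. On high fat, females had 59.2, 74.7, 95.2, 118 and 94.1 CPM, against 117, 160, 171, 215 and 199 CPM in males. On chow, females had 73.4, 79.9, 60.6, 109 and 55.1 CPM, against 227, 132, 114 and 145 CPM in males. Every chow female lay below every chow male, and on high fat the groups overlapped only through female 4, at 118 CPM, above the lowest male. The log2 change, female over male, was -0.97 ± 0.22 on high fat (edgeR adjusted p = 0.0124) and -1.03 ± 0.24 on chow (adjusted p = 0.0212), 0.512 and 0.489 of the male level. The call on high fat held in all 20 alternatives. The call on chow was lost without chow female 1, 3 or 5 and without chow male 1, where the weakest gave adjusted p = 0.0964.

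Diet did not change Acta1 past the threshold, with 0.22 ± 0.22 in females (edgeR adjusted p = 0.589) and 0.16 ± 0.24 in males (adjusted p = 0.999). In 1 of its 8 exon pieces the level was under 1 CPM, and the other 7 were all lower in females, by log2 ratios of -1.003 to -0.88 on high fat and -1.07 to -0.98 on chow. Actc1, the cardiac actin that fills the adult sarcomere, stood at 7741 ± 1022 CPM in high-fat females, 7845 ± 501 in chow females, 7691 ± 323 in high-fat males and 8707 ± 172 in chow males. It was called in none of these comparisons. Acta1 made up 1.17% ± 0.17 of Acta1 plus Actc1 in high-fat females and 2.30% ± 0.45 in high-fat males, and 0.999% ± 0.24 in chow females and 1.82% ± 0.54 in chow males (SD). Exact two-sided permutation tests gave p = 0.00794 on high fat and p = 0.0159 on chow, each the smallest possible, and 0.0635 for both after adjustment over the 8 share comparisons. The coding sequences of Acta1 and Actc1 are 86.3% identical and share no stretch of 50 bases.

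Acta2, the smooth muscle alpha-actin gene, was the one member that rose with diet. High-fat females had 129, 131, 153, 188 and 126 CPM, against 107, 81.5, 95.1, 134 and 115 CPM in chow females. High-fat males had 73.5, 123, 115, 144 and 139 CPM, against 78.5, 85.4, 78.8 and 74.7 CPM in chow males. High-fat male 1, the lowest of all 19 libraries, lay below every chow male, and the other 4 high-fat males lay above them. In females the groups overlapped through chow female 4. The averaged change was 0.52 ± 0.12, 1.43 times the chow level (edgeR adjusted p = 0.0197), and it was called in all 28 alternatives, with adjusted p up to 0.0486. Neither sex was called alone, at 0.45 ± 0.16 in females (adjusted p = 0.137) and 0.59 ± 0.17 in males (adjusted p = 0.176). Males were called without high-fat females 4 and 5 (adjusted p = 0.0387), without high-fat male 1 (0.0305) and in a fit to males only (0.0371). The difference between these 2 changes was -0.13 ± 0.23 (adjusted p = 0.818).

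Acta2 is made by vessel muscle and by activated fibroblasts as well as by stressed or fetal cardiac muscle. Of 14 smooth muscle genes all 14 were tested and none was called for diet by edgeR with all libraries, in either sex or on average. With high-fat females 4 and 5 left out, Notch3 was called higher (0.26 ± 0.07, adjusted p = 0.0436) and Pln lower (-0.22 ± 0.05, adjusted p = 0.0187) for diet in females. Myh11, the smooth muscle myosin, averaged 33.3 ± 7.17 CPM in high-fat females and 29.7 ± 4.56 in chow females, and 38.2 ± 5.95 in high-fat males and 32.9 ± 3.16 in chow males. Tagln, an actin-binding protein of smooth muscle, averaged 20.7 ± 2.67 CPM in high-fat females and 17.8 ± 2.53 in chow females, and 19.9 ± 2.72 in high-fat males and 16.2 ± 0.93 in chow males (averaged change 0.26 ± 0.08, edgeR adjusted p = 0.103). Without Pln, which cardiac muscle also makes in quantity, the list summed to 532 to 868 CPM in high-fat females, 786 to 880 in chow females, 801 to 904 in high-fat males and 830 to 876.5 in chow males. High-fat females other than 4 and 5 held 833 CPM or more. Of 10 fibroblast genes, 3 rose on average, all of them collagens: Col1a1 by 0.27 ± 0.05, Col1a2 by 0.25 ± 0.04 and Col3a1 by 0.33 ± 0.06 (largest adjusted p = 0.00528). By sex, 4 of the 10 were called higher in females and 0 in males, with median log2 changes of 0.23 and 0.05. The fibroblast list summed to 3094 to 3881 CPM in high-fat females against 2695 to 3027 in chow females, and to 2706 to 2921 in high-fat males against 2558 to 2774 in chow males. The part of either cell type in the Acta2 change was not tested.

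Ankrd1 was lower in high-fat females than in high-fat males on average, with overlap. High-fat females had 560, 728, 661, 676 and 464 CPM, against 912, 962, 740, 871 and 703 CPM in chow females. High-fat males had 656, 786, 1107, 902 and 900 CPM, against 933, 636, 739 and 760 CPM in chow males. Both diet pairs overlapped. On high fat, females 1 and 5 lay below every male, and male 1 lay below females 2, 3 and 4. Female over male on high fat gave a log2 change of -0.49 ± 0.14 (edgeR adjusted p = 0.0349), and the call was lost without high-fat females 4 and 5 (-0.43, adjusted p = 0.0609), without female 5 alone, without high-fat male 3, 4 or 5, and in a fit to the high-fat groups only (adjusted p = 0.0997). On chow it was 0.13 ± 0.15 (adjusted p = 0.786). The diet change was -0.44 ± 0.14 in females (adjusted p = 0.105) and 0.18 ± 0.15 in males (adjusted p = 0.908), and the difference between them was -0.62 ± 0.21, with an unadjusted p of 0.00801 and an adjusted p of 0.354. All 9 Ankrd1 exon pieces were lower on high fat in females and higher on high fat in males. They are parts of 1 gene counted in the same libraries, and not replicates.

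**Figure D5:**
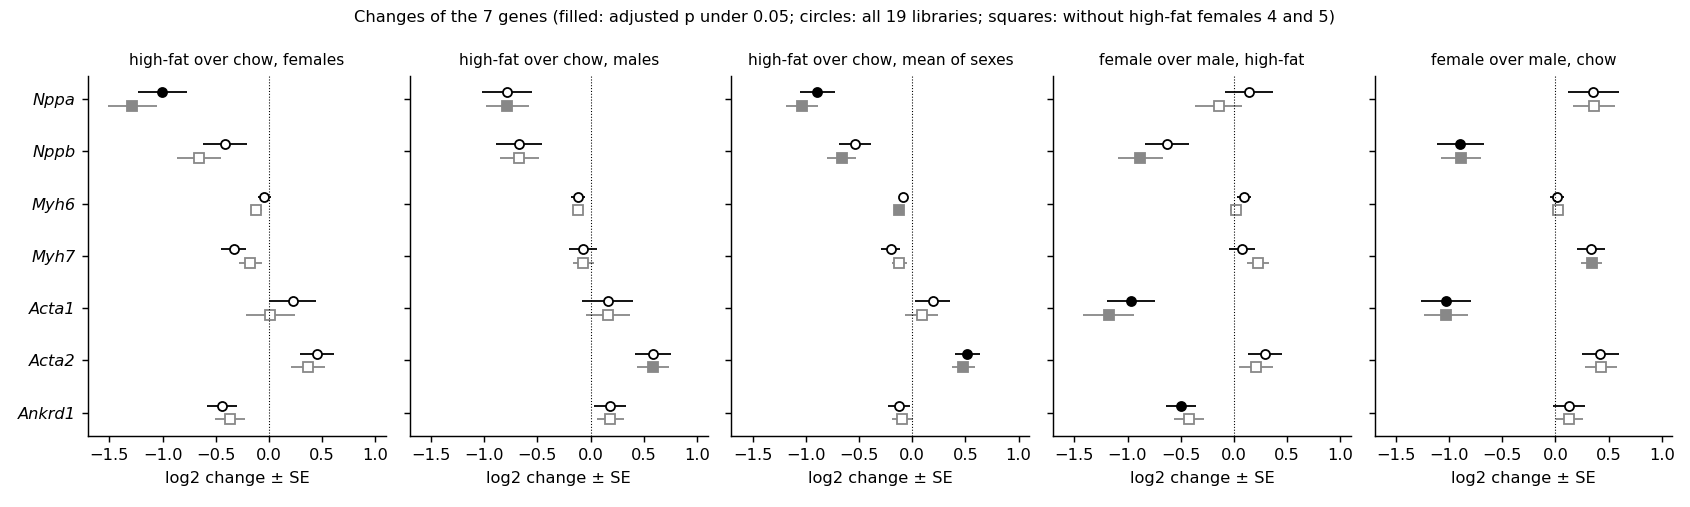
Log2 change of each gene with its SE in 5 comparisons, high-fat over chow in females, in males and on average, then female over male on high fat and on chow. Circles use all 19 libraries and squares leave out high-fat females 4 and 5, and filled marks have an edgeR adjusted p under 0.05. Nppa lies left of 0 and Acta2 right of 0 in all 3 diet panels, and Acta1 lies at -0.97 and -1.03 in the sex panels.

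Read as a set, the 7 genes did not move one way. On average over the sexes 1 was lower (Nppa) and 1 higher (Acta2) on high fat, where edgeR called 2.93% of all genes, 1.2% lower and 1.73% higher. In females 1 of 7 was called, where 2.53% of genes were. In males none of 7 was called by edgeR or by DESeq2, where edgeR called 0.764% of genes. There 3 of the 7 had an unadjusted edgeR p under 0.05, as had 1539 of the 18069 genes tested. For the difference in diet change between the sexes edgeR called none of 7 and 0% of all genes. Ankrd1 was the 1 member with an unadjusted p under 0.05, as had 1839 of all genes tested. DESeq2 called none of the 7 and 49 genes of all. On high fat 2 of 7, Acta1 and Ankrd1, were lower in females, where 3.92% of genes were lower and 10.3% were called. On chow 2 of 7, Nppb and Acta1, were lower in females, where 1.49% of genes were lower and 3.22% were called. The median log2 change of the 7 genes was -0.33 for diet in females, -0.07 in males, 0.07 for sex on high fat and 0.13 on chow, against -0.02, 0.00, 0.01 and 0.01 over all genes tested.

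Counted by libraries, Nppa was below with no overlap for diet in females, as were 1.9% of genes, and Nppb for diet in males, as were 3.98%. Nppb and Acta1 were below with no overlap for females against males on chow, as were 6.09% of genes. Without high-fat females 4 and 5, the averaged diet change was called in 4 of 7 genes, with Nppa, Nppb and Myh6 lower and Acta2 higher, where 8.47% of genes were called. In females it was 1 (4.95% of genes), in males 2 (2.59%), between the sexes on high fat 2 (10.4%) and on chow 3 (10.5%).

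The sex comparisons coincide with a large difference in clock genes. Dbp, a transcription factor with a strong daily cycle, stood at 78.2 to 137 CPM in high-fat females against 10.8 to 19.4 in high-fat males, and at 72.6 to 111 in chow females against 7.78 to 11.2 in chow males. Arntl, which peaks at the opposite phase, stood at 6.54 to 10.4 CPM in high-fat females against 25.2 to 34.99 in high-fat males, and at 8.90 to 14.6 in chow females against 34.6 to 39.9 in chow males. Of 17 clock genes, edgeR called 14 between the sexes on high fat, 10 higher and 4 lower in females, and 13 on chow, 9 higher and 4 lower. For diet, edgeR called Arntl in females (-0.65 ± 0.14, adjusted p = 0.0235) and Nfil3 in males (-0.76 ± 0.14, adjusted p = 0.0127), and on average Dbp higher and Arntl and Nfil3 lower. In males 4 were called for diet without high-fat females 4 and 5: Nfil3 (-0.76 ± 0.13, adjusted p = 0.00193) and Cry1 (-0.30 ± 0.08, adjusted p = 0.0356) lower, and Nr1d2 (0.52 ± 0.09, adjusted p = 0.00196) and Dbp (0.76 ± 0.16, adjusted p = 0.0118) higher. In that fit Nr1d2 also joined the average calls, higher (0.28 ± 0.06, adjusted p = 0.00751). Between the sexes the same fit called 10 higher and 5 lower in females on high fat, and 11 higher and 5 lower on chow. Dbp and Arntl did not overlap between the sexes on either diet. In the sex differences of Nppb, Acta1 and Ankrd1, sex and clock phase therefore cannot be told apart. The part of clock phase in the diet changes of Nppa and Acta2 was not tested.

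Other sarcomere genes gave a setting for the myosin and actin values. Of 20 tested, none rose for diet on average and 3 fell, all troponins: Tnnt1, the slow skeletal troponin T (-0.53 ± 0.09, edgeR adjusted p = 0.00271), Tnnt2, the cardiac one (-0.24 ± 0.05, adjusted p = 0.00684), and Tnnc1, cardiac troponin C (-0.24 ± 0.06, adjusted p = 0.0232). Their median was -0.14 and the same without high-fat females 4 and 5 was -0.16, with 9 called lower. That fit called 7 lower in females and 3 in males, and Myom1 lower in females than in males on high fat (-0.17 ± 0.05, adjusted p = 0.0241) and on chow (-0.14 ± 0.04, adjusted p = 0.0454). The skeletal muscle myosin Myh4 had 1 count in all 19 libraries, and Mylpf, the fast skeletal light chain, was at 0.822 to 1.96 CPM.

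Among 20 cardiac transcription factors, 3 rose for diet on average: Mef2d (0.25 ± 0.04, edgeR adjusted p = 0.00271), Mrtfb, a coactivator of SRF (0.22 ± 0.05, adjusted p = 0.0203), and Tbx5 (0.21 ± 0.05, adjusted p = 0.0387). Between the sexes Nfatc2 was higher in females on high fat (0.36 ± 0.07, adjusted p = 0.00354) and on chow (0.44 ± 0.07, adjusted p = 0.00221). Tbx5 was higher in females too, on high fat (0.29 ± 0.07, adjusted p = 0.0195) and on chow (0.38 ± 0.08, adjusted p = 0.0114). Srf itself was lower in females than in males on chow (-0.28 ± 0.07, adjusted p = 0.0416), as was the TEAD coactivator Yap1 (-0.18 ± 0.04, adjusted p = 0.0176). Tbx5 was no longer called on high fat without high-fat females 4 and 5, and in that fit Tead1 was called lower in females on chow (-0.42 ± 0.08, adjusted p = 0.00134), and Mef2d was called higher for diet in males (0.21 ± 0.05, adjusted p = 0.0363). Of 24 further genes of hypertrophy and stretch, none was called for diet by edgeR with all libraries, in either sex or on average. When high-fat females 4 and 5 were left out, Ccn1 (-0.22 ± 0.06, adjusted p = 0.0193) and Fhl2 (-0.13 ± 0.04, adjusted p = 0.0301) were called lower on average. With all libraries, between the sexes 3 of them were lower in females on both diets. Ankrd23, a relative of Ankrd1, gave -0.54 ± 0.08 on high fat (adjusted p = 0.000616) and -0.64 ± 0.09 on chow (adjusted p = 0.000288). Rcan1, a calcineurin target, gave -0.60 ± 0.09 (adjusted p = 0.000414) and -0.73 ± 0.09 (adjusted p = 0.000129). Ccn1, a matrix protein induced by stretch and serum, gave -0.39 ± 0.08 (adjusted p = 0.00434) and -0.36 ± 0.08 (adjusted p = 0.0195). With those 2 libraries left out, 4 were lower on high fat and 5 on chow, with Xirp2 called on both diets (-0.45 ± 0.11, adjusted p = 0.0155, and -0.58 ± 0.10, adjusted p = 0.00116).

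For each of the 7 genes the 3 genes of most like pattern were taken from 12075 genes, over the 17 libraries other than high-fat females 4 and 5. The measure was the root mean square difference between standardised log2 levels, in SD units, where smaller is more alike and the median over all genes was 1.36 to 1.38. Nearest to Nppa were Slc25a13 (0.558), Slc2a4, the insulin-responsive glucose transporter (0.559), and Lrrc4b (0.563). Nearest to Nppb were Cpxm2 (0.390), the water channel gene Aqp1 (0.408) and Abcb4 (0.470), and nearest to Acta1 were Cttnbp2nl (0.4625), Mertk (0.494) and Kctd10 (0.501). Myh7 lay nearest to Bmp4 (0.465), to Mhrt, which overlaps its pieces (0.466), and to Rgmb (0.478). Myh6 lay nearest to Dmpk (0.512), Celsr1 (0.515) and Fbxw8 (0.521), Acta2 to Prr5l (0.564), Usp3 (0.585) and Il4i1 (0.622), and Ankrd1 to Acot9 (0.551), Hs3st5 (0.575) and Zfp994 (0.609). Between members the same measure was 1.05 for Nppa and Nppb and 0.832 for Nppb and Acta1. These distances are a description over libraries that share their groups.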

How the data were processed

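Heart RNA was measured in 20 libraries and 19 were compared. The deposited files hold whole counts per exon piece, and Chow-M4, deposited as counts per gene, was left out. Salmon (1.5.1), DESeq2 (1.32.0) and GRCm39 appear in the submitters' processing notes, without their roles, and the counter and its strand setting are not given in the sources used here. Symbols and positions came from GENCODE on GRCm38, where 91.4% of shared genes had the same bounds as in the files. Pieces were summed per gene, so a read that spans several pieces may be counted more than once. Between 1.35% and 1.49% of counts lay in pieces of several genes and were not used.

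The main test was the quasi-likelihood F-test of edgeR 4.0.16 with TMM scaling and its filterByExpr filter, in 1 model over 4 groups with 15 residual degrees of freedom. P-values were adjusted by Benjamini-Hochberg over 18069 genes and called under 0.05. Shares were compared by exact permutation tests over libraries. The edgeR fit was also run on simulated counts, for diet in females only. Those counts held no outlying libraries like high-fat females 4 and 5, so that run does not bear on them. Alternatives were DESeq2 1.42.0, its size factors, no filter or 1 CPM in 5 libraries, the compared groups alone, replicate number as a block, the largest exon piece, shares without length division, and leaving out libraries. The choices of pieces for Nppa, Myh6 and Myh7 were added after seeing the data. Members and gene lists were chosen with earlier results of these data known. Named genes are the members, up to 4 called genes of a list per comparison, fixed markers and the 3 genes most like each member.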

Additional observations from a re-analysis of the deposited data

How the results depend on the processing

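Of 938 log2 changes of the 7 genes recomputed under alternatives, 884 kept direction and side of the threshold, 18 gained a call, 22 lost one and 14 turned sign. The causes were not tested. Genes called for diet in females, in males and on average, for the difference between them, and for sex on high fat and on chow numbered 457, 138, 530, 0, 1866 and 582. DESeq2 called 970 for diet in females, 252 in males, 827 on average, 49 for the difference and 895 for sex on chow. With no filter the counts were 195, 84 and 351 for diet in females, in males and on average, and 1108 and 351 for sex on high fat and on chow. Fits to only the groups compared called 21 genes and 0 members for diet in females, 572 and 2 in males, 547 and 1 for sex on high fat, and 1538 and 4 for sex on chow. Without high-fat females 4 and 5 the counts were 906 in females, 474 with 2 members in males, 1549 with 4 members on average, and 1916 for sex on chow. The largest exon piece gave 254, 90, 1 and 359 genes for diet in females, in males, their difference and sex on chow.

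The replicate block called 85 genes for diet in males and changed no member's call. No label says whether equal numbers pair the libraries. Of 27 same-numbered pairs 2 correlated above 0.1 (-0.067 to 0.161), and 6 of 19 libraries correlated best with their own number. These correlations were set against no reference, so they cannot decide whether libraries were paired.

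Leaving out 1 library gave 219 to 909 genes and 0 to 1 members for diet in females, 42 to 99 and 0 to 1 in males, 0 to 5 genes for the difference, 1096 to 3447 and 1 to 3 for sex on high fat, and 259 to 510 and 0 to 2 for sex on chow. Log2 changes that turned sign, none of them called, ran from -0.0164 to 0.27 for Nppa by sex on high fat, -0.00435 to 0.0477 for Myh6 by sex on chow, -0.14 to 0.00571 for Myh7 by diet in males, -0.0341 to 0.15 for Myh7 by sex on high fat, and -0.17 to 0.23 for the Acta1 difference. The Myh7 share ran from -0.296 to -0.145 points for diet in females, -0.018 to 0.0975 in males, -0.0927 to 0.0579 for sex on high fat and 0.175 to 0.301 on chow, and the Acta1 share from 0.109 to 0.261 for diet in females. Without high-fat females 4 and 5 the Nppa sex change on high fat was -0.14, the Myh6 difference -0.00313, the Acta1 difference -0.15 and the Myh7 share by sex on high fat 0.156 points, which was 0.129 on the largest piece. Without shared stretches Myh6 by sex on chow was -0.0233, and the Myh7 share was -0.0119 points for diet in males and 0.196 by sex on chow (exact permutation p = 0.0635).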

Other observations

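The chow male library counted per gene gives values that belong in no comparison, since its counts are not on the scale of summed exon pieces. Of its 31686627 counts it held 1806 for Nppa, 14806 for Nppb, 1014511 for Myh6, 12753 for Myh7, 14767 for Acta1, 2009 for Acta2 and 35747 for Ankrd1.

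Of the other cell type lists, 5 of 10 endothelial genes rose with diet on average, among them Fabp4 (0.25 ± 0.05, edgeR adjusted p = 0.00492), Cdh5 (0.18 ± 0.04, adjusted p = 0.0168), Pecam1 (0.14 ± 0.03, adjusted p = 0.0197) and Tie1 (0.17 ± 0.04, adjusted p = 0.0332). Of 7 adipocyte genes tested 1 rose, Cidea (0.39 ± 0.08, adjusted p = 0.0116). None of 10 macrophage genes was called for diet by edgeR. Between the sexes on high fat, 8 of 10 fibroblast genes and 2 of 10 macrophage genes were higher in females, and 7 and 2 without high-fat females 4 and 5.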
